A study of Mus musculus with 7 samples.

Results

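The genes of B cells and plasma cells described here were Ighm, Jchain, Mzb1, Pou2af1, Cd79a, Cd79b, Ms4a1, Tnfrsf17 and Tnfrsf13c, 9 of the 18193 genes on the arrays. Every probe set annotated to a member alone was taken, which gave 20 of 45037 probe sets, and no probe set was removed for a low value. Ighm was measured by 11 of them, Ms4a1 by 2 and each other member by 1. The set was chosen by the level of Ighm, which was higher in every heart that lacked cardiomyocyte IKKβ, so the differences of its members between the groups are given as a description, with no test.

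Total RNA from whole hearts of 7 male mice at 7 months of age was hybridized to Affymetrix Mouse Genome arrays, with 1 heart per array. The mdx mutation, present in all 7, abolishes dystrophin and is used to model Duchenne muscular dystrophy. In the 4 mdx HRTΔIKKβ mice, Cre recombinase driven by the Myh6 promoter deleted a floxed IKKβ, the kinase that activates NF-κB. The 3 mdx IKKβf/f mice were littermates that carried the floxed allele, with no Cre named in their labels. Myh6 is a gene of cardiomyocytes, so B cells and plasma cells in either group were not the target of the deletion, but their RNA is part of a whole heart sample. The study states that its samples were biological replicates, and p-values given for genes outside the set measure the spread between these 7 hearts. Levels are log2 RMA values and differences are mdx HRTΔIKKβ minus mdx IKKβf/f on the log2 scale, with the standard error (SE) of the limma fit. A level of a probe set cannot be set against that of another probe set.

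B cells recognise antigen through a surface receptor made of an immunoglobulin bound to the signalling pair Cd79a and Cd79b. Once activated they can become plasma cells, which give up most of their surface receptor and secrete antibody in quantity, as pentamers joined by the J chain in the case of IgM. In the heart B cells are a resident and circulating population, found in vessels and in the fat around the pericardium as well as in the muscle. Cd79a, Cd79b, Ms4a1 and Tnfrsf13c are taken here as B cell receptor and surface genes, Jchain, Mzb1 and Tnfrsf17 as plasma cell genes, and Ighm and Pou2af1 as genes that both stages use.

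Promoter sequence is shown for a gene of each of these 3 classes, since Pou2af1 encodes a coactivator that binds with Oct factors at the octamer ATGCAAAT of immunoglobulin promoters. The lines give the 250 bases before the RefSeq start of each gene (GRCm38.p6), 5′ to 3′ on the strand of the gene, with capitals for a match to a motif that was searched on both strands. They cover chr5:88527898-88528147 on the minus strand for Jchain, chr7:24897247-24897496 on the plus strand for Cd79a and chr9:51213440-51213689 on the plus strand for Pou2af1.
Jchain: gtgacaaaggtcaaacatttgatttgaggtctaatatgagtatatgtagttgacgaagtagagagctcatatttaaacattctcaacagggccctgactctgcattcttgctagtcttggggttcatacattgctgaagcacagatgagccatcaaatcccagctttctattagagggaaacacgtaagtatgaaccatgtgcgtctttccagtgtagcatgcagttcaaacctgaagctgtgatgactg
Cd79a: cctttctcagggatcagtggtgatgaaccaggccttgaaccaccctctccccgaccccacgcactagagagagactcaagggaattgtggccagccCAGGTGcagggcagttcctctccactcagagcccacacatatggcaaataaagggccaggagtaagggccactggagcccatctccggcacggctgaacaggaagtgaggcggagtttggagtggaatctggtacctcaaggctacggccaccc
Pou2af1: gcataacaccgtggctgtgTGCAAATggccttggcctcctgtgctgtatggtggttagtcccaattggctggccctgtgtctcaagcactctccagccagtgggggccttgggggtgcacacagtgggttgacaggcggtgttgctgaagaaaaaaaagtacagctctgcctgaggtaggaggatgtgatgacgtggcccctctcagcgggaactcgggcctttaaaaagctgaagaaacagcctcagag

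Promoter windows of 5 members were searched (Jchain, Cd79a, Pou2af1, Tnfrsf13c and Tnfrsf17). The whole octamer ATGCAAAT was in 0 of these 5 windows and in 1.60% of 32851 mouse promoter windows of that length. The shorter string TGCAAAT, which lies within the octamer, was in the Pou2af1 window only, 231 bases before the start, against 3.57% of all windows. The E-box CAGGTG was in the Cd79a window at 154 bases and in the Tnfrsf13c window at 96 bases before the start, against 17.2% of all windows, and the palindromic consensus of the B cell factor Ebf1 was in 0 of the 5 against 0.779% of all. These are matches of letters and not binding sites.

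Several hearts held RNA of other tissues, and these hearts are named before the results because some of the members were high in them. Replicate 2 of the mdx HRTΔIKKβ group carried lung and airway markers, with Sftpc (surfactant of alveolar cells) at 11.83 against 5.82 to 6.66 in the other hearts, and Scgb1a1 (secretoglobin of club cells) at 13.27. Replicate 4 of that group was high in airway markers without the alveolar ones, with Scgb1a1 at 12.54 and Sftpc at 6.25. Replicate 1 of that group carried thymus markers, with Rag1, which recombines antigen receptor genes in immature lymphocytes, at 9.63 against 3.97 to 4.54 elsewhere. Foxn1 and Psmb11 of the thymus list were not raised in it, at 5.95 and 4.71 against 5.69 to 5.98 and 4.53 to 4.75 elsewhere. Replicate 1 of the mdx IKKβf/f group was highest in skeletal muscle genes, with Tnnc2 at 13.27. Tnnc2 was also raised in mdx IKKβf/f replicate 3 (9.67) and mdx HRTΔIKKβ replicate 2 (9.05), against 6.07 to 6.59 in the other hearts. Scgb1a1 was raised to a lesser degree in mdx HRTΔIKKβ replicate 1 (8.86) and mdx IKKβf/f replicate 2 (8.12), against 5.59 to 6.79 in the remaining hearts. Cardiomyocyte genes had mean list levels of 14.19 to 14.26 in all hearts, near the highest array value of 15.09, where a changed share of cardiomyocytes might not show. Array medians were 6.73 to 6.75, and pairs of arrays correlated at 0.987 to 0.996. Ikbkb itself differed by -0.18 ± 0.11 (limma, adjusted p = 0.801) at its brightest of 5 probe sets, and the sources used here do not say whether these lie in the deleted part.

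Of the 9 members, 6 had a mean at least 1.5-fold higher in mdx HRTΔIKKβ hearts (Ighm, Jchain, Ms4a1, Pou2af1, Cd79b and Mzb1), where 1.14% of all genes did. The other members, Cd79a, Tnfrsf13c and Tnfrsf17, lay below that fold. Every mdx HRTΔIKKβ heart was above every mdx IKKβf/f heart for 2 members, Ighm and Mzb1, where 3.05% of all genes had such a separation. For Ighm this separation is the trait by which the set was chosen. As probe sets, 9 of 20 were at least 1.5-fold higher, against 0.79% of all probe sets. Ighm is in each of these counts through that choice, so the counts describe the set and do not test it. In 8 of the 9 members the highest heart was mdx HRTΔIKKβ replicate 2, the heart with lung markers, which was the highest heart in 19.5% of all genes. Without that heart 3 members were at least 1.5-fold higher (Ighm, Jchain and Ms4a1). A whole heart sample cannot tell more cells of a type from more RNA per cell.

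**Figure D1:**
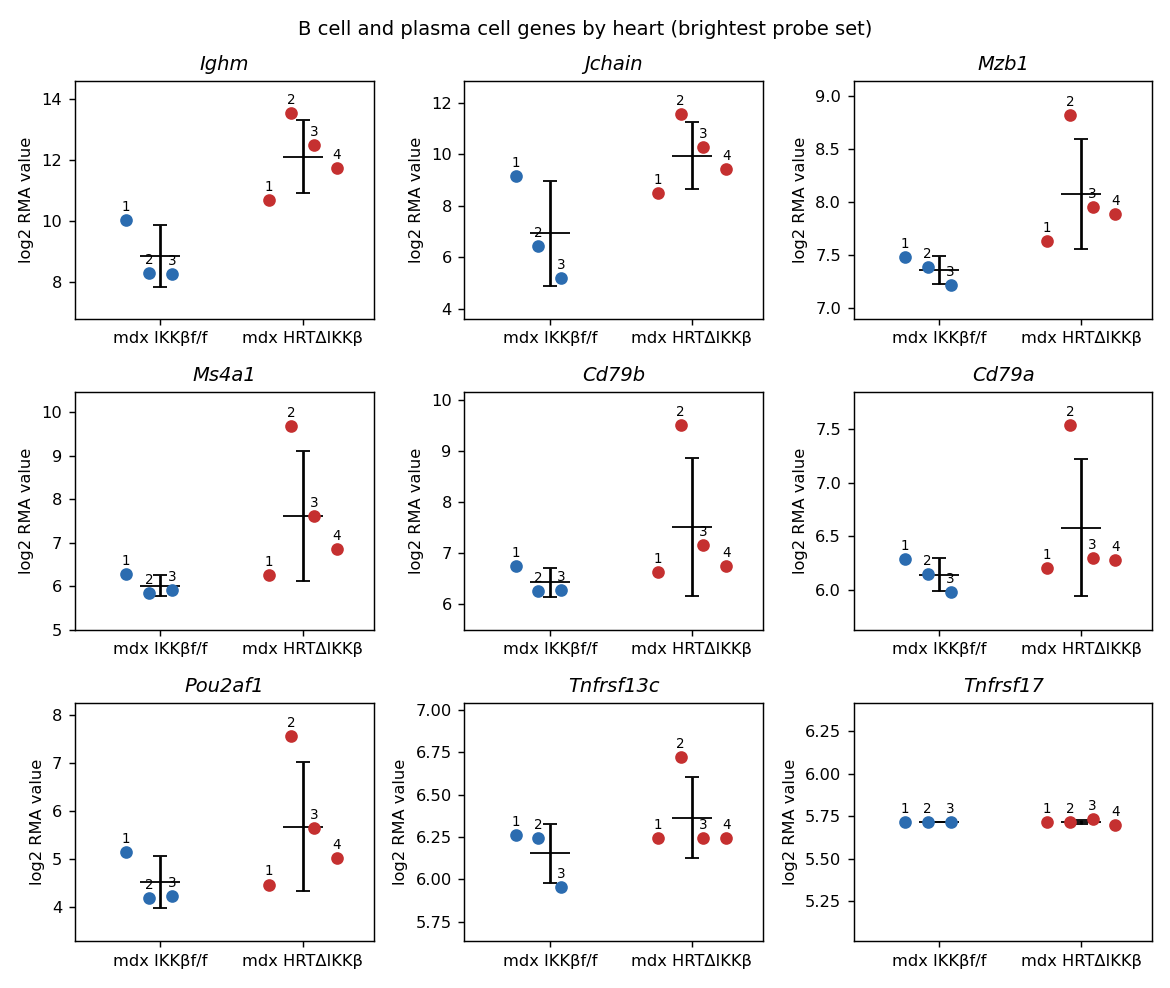
Level of the brightest probe set of each member (y axis, log2 RMA value) by group (x axis), with a point for each heart labelled by its replicate number and bars for the mean ± SD. Ighm and Mzb1 are the panels whose groups do not overlap, and mdx HRTΔIKKβ replicate 2 is the highest point in every panel but that of Tnfrsf17.

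Ighm encodes the constant region of the IgM heavy chain, which B cells carry on the surface and plasma cells secrete. Its brightest probe set (1427351_s_at) read 10.68, 13.55, 12.49 and 11.73 in mdx HRTΔIKKβ replicates 1 to 4 and 10.04, 8.28 and 8.26 in mdx IKKβf/f replicates 1 to 3. The groups did not overlap, but the gap between the lowest mdx HRTΔIKKβ heart and the highest mdx IKKβf/f heart was 0.65, while the hearts of the first group spanned 2.87. The means were 12.11 ± 1.21 (SD, n = 4) and 8.86 ± 1.02 (SD, n = 3), a difference of 3.25 ± 0.71 (SE) or 9.54-fold. Replicate 3 of the mdx HRTΔIKKβ group, which was low in lung and in thymus markers, had the second highest value. It was not low in markers of every other tissue. The mesothelial gene Upk3b read 8.57 there against 7.43 to 8.20 in the controls. The adipocyte gene Adipoq read 9.46 there against 9.94, 6.58 and 7.63 in mdx IKKβf/f replicates 1 to 3. The part of these tissues in the Ighm value was not tested. With the 3 hearts with high thymus or airway markers removed, replicate 3 was the lone mdx HRTΔIKKβ heart and the difference was 3.63. Without replicate 2 alone it was 2.78. Without mdx IKKβf/f replicate 1, the heart highest in skeletal muscle genes, it was 3.84.

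The other Ighm probe sets did not all follow this pattern. Probe set 1427329_a_at read 9.61, 12.62, 11.53 and 10.53 against 9.34, 7.43 and 7.77, a difference of 2.89 ± 0.74, and its values correlated with those of the brightest probe set at Pearson r = 0.995 over the 7 hearts. Probe set 1425385_a_at differed by 0.81 ± 0.47 with overlapping groups and was lowest, at 6.34, in mdx IKKβf/f replicate 1. The remaining 8 differed by -0.08 to 0.37. Of these, 1452535_at (difference 0.28 ± 0.09) followed the brightest at r = 0.898, over a range of 0.52 between hearts. Probe sets 1425247_a_at, 1425324_x_at and 1427756_x_at were highest in mdx HRTΔIKKβ replicate 3, at 7.52, 7.08 and 7.06, and had replicate 4 below at least 1 of the mdx IKKβf/f hearts. The mean over all 11 probe sets gave a difference of 0.76 in place of 3.25, so the size of the Ighm difference rests on 2 probe sets. A further 4 probe sets are annotated to Ighm together with variable segments or Ighg3, and were between 4.10 and 6.61 in every heart.

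**Figure D2:**
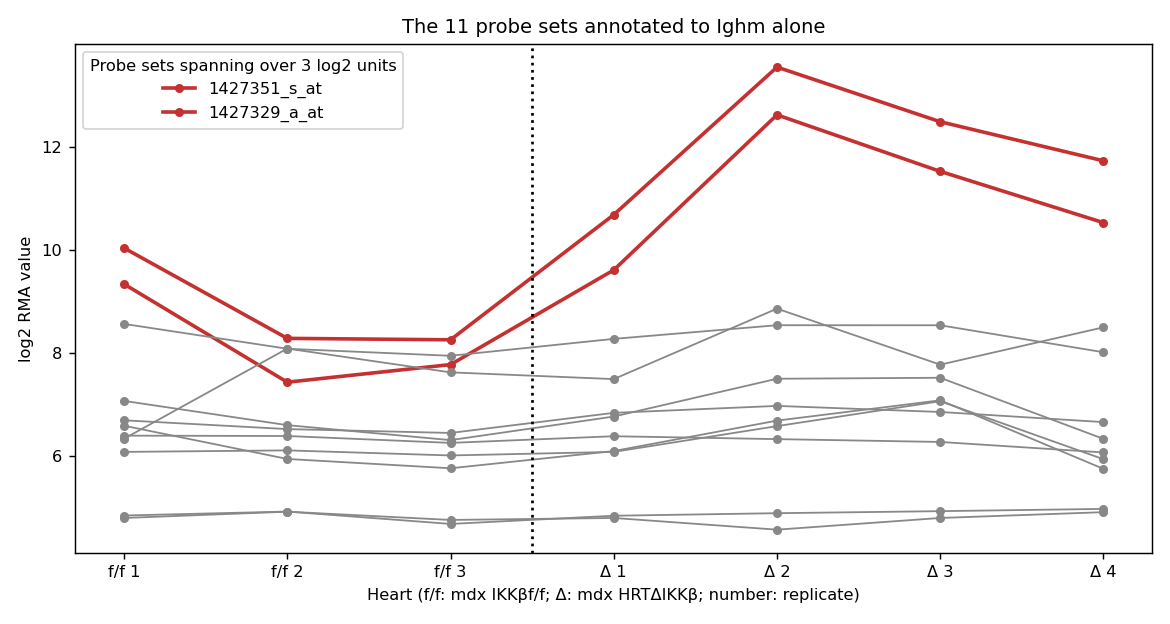
Level (y axis, log2 RMA value) of the 11 probe sets annotated to Ighm alone in each of the 7 hearts (x axis, mdx IKKβf/f left of the dotted line and mdx HRTΔIKKβ right of it), with a line for each probe set. The 2 red lines, 1427351_s_at and 1427329_a_at, span more than 5 log2 units over the hearts, and no grey line spans more than 2.52.

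Jchain encodes the joining chain that links secreted IgM and IgA into polymers and is made in quantity by plasma cells. It read 8.50, 11.56, 10.26 and 9.43 in mdx HRTΔIKKβ replicates 1 to 4 and 9.15, 6.44 and 5.17 in mdx IKKβf/f replicates 1 to 3. The groups overlapped, since mdx IKKβf/f replicate 1 lay above mdx HRTΔIKKβ replicate 1 by 0.65. The means were 9.94 ± 1.30 (SD, n = 4) and 6.92 ± 2.03 (SD, n = 3), a difference of 3.02 ± 1.01 or 8.11-fold. Its range of 6.39 over the 7 hearts was exceeded by few genes, as 99.97% of all genes had a range at or below it. The control hearts alone spanned 3.98, more than the 3.06 of the mdx HRTΔIKKβ hearts. The difference was 2.48 without mdx HRTΔIKKβ replicate 2, 4.13 without mdx IKKβf/f replicate 1 and 2.14 when mdx IKKβf/f replicate 3 was left out.

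Mzb1, an endoplasmic reticulum protein of B cells and plasma cells that helps assemble IgM, read 7.63, 8.82, 7.95 and 7.88 in mdx HRTΔIKKβ hearts and 7.48, 7.38 and 7.22 in mdx IKKβf/f hearts. All 4 hearts of the first group were above all 3 of the second, by 0.15 at the closest. The difference was 0.71 ± 0.26, and 0.46 ± 0.11 without replicate 2 of the mdx HRTΔIKKβ group. Tnfrsf17 encodes BCMA, the receptor through which plasma cells take up survival signals. It showed no pattern, with a level of 5.72 repeated in 5 of the 7 hearts and a range of 0.034, a spread as small as in 0.209% of all genes. Its values set no heart apart from another. The plasma cell genes therefore differed by 3.02, 0.71 and -0.00, with a median of 0.71, which is the value of Mzb1. The median over all genes was -0.0056.

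The B cell receptor and surface genes all had their highest value in mdx HRTΔIKKβ replicate 2. Ms4a1, which encodes the surface protein CD20 of B cells and is lost in plasma cells, read 6.26, 9.69, 7.62 and 6.86 in mdx HRTΔIKKβ hearts and 6.28, 5.84 and 5.90 in mdx IKKβf/f hearts. Replicates 2, 3 and 4 were above every control heart and replicate 1 lay within them. The difference was 1.60 ± 0.73 with all hearts, 0.91 ± 0.33 without replicate 2, and 1.61 with replicate 3 as the lone mdx HRTΔIKKβ heart. The second Ms4a1 probe set (1450912_at) had the same order at the top, with 7.34 in replicate 2 and 4.49 in replicate 3 against 3.78 to 4.05 in the controls.

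Cd79b, the beta chain of the receptor's signalling pair, read 6.63, 9.50, 7.15 and 6.75 in mdx HRTΔIKKβ hearts and 6.75, 6.25 and 6.27 in mdx IKKβf/f hearts. The groups overlapped, and replicate 2 stood 2.36 above the next heart, replicate 3. The difference of 1.08 ± 0.66 was 0.42 ± 0.18 without replicate 2. Cd79a, the alpha chain, read 6.20, 7.53, 6.30 and 6.28 against 6.29, 6.15 and 5.98. Apart from replicate 2 the hearts of both groups lay between 5.98 and 6.30, and the difference of 0.44 ± 0.32 was 0.12 ± 0.09 without that heart. Tnfrsf13c, the receptor for the B cell survival factor BAFF, read 6.72 in replicate 2 and the identical value of 6.24 in the other 3 mdx HRTΔIKKβ hearts and in mdx IKKβf/f replicate 2, and differed by 0.21 ± 0.14. The median over the 4 genes of this class was 0.76, and 0.27 without replicate 2, against 0.71 and 0.46 for the plasma cell genes, both the values of Mzb1.

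Pou2af1, the B cell coactivator of Oct factors whose promoter is printed above, read 4.47, 7.57, 5.64 and 5.03 in mdx HRTΔIKKβ hearts and 5.14, 4.19 and 4.23 in mdx IKKβf/f hearts. Control replicate 1 lay above replicates 1 and 4 of the mdx HRTΔIKKβ group, so the groups overlapped. The difference was 1.16 ± 0.68, and 0.53 ± 0.36 without replicate 2. The 3 highest hearts were replicates 2 and 3 of the mdx HRTΔIKKβ group and replicate 1 of the mdx IKKβf/f group.

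**Figure D3:**
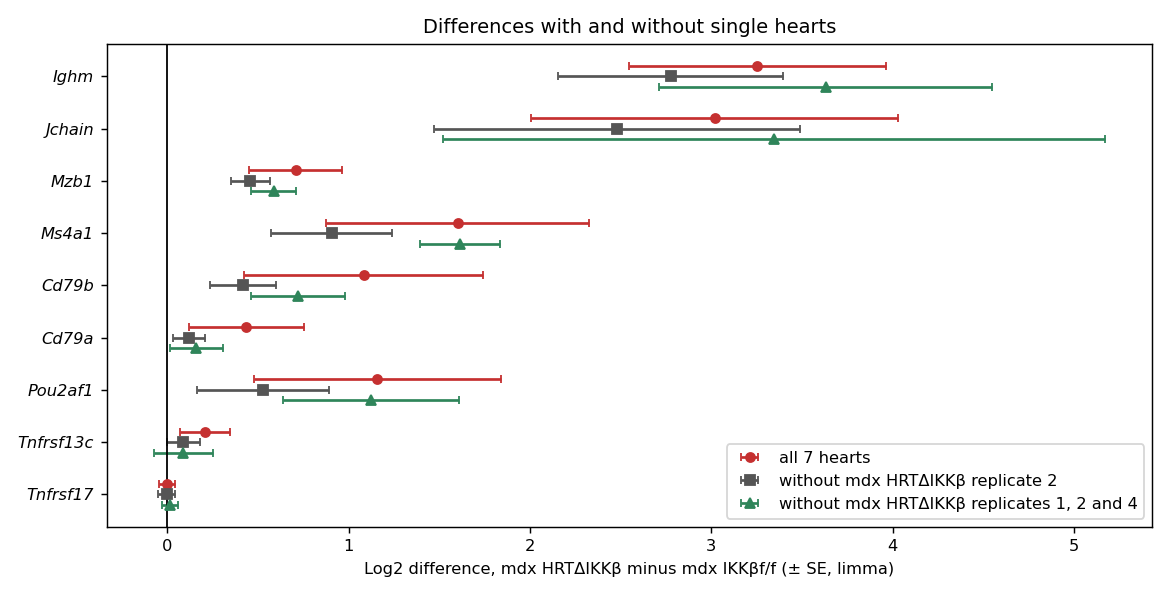
Log2 difference between the groups (x axis, mdx HRTΔIKKβ minus mdx IKKβf/f, ± SE of the limma fit) of each member (y axis) with all 7 hearts, without mdx HRTΔIKKβ replicate 2, and without mdx HRTΔIKKβ replicates 1, 2 and 4. The Ighm difference is 3.25, 2.78 and 3.63 under these choices, while that of Cd79a is 0.44, 0.12 and 0.16. The last choice leaves a lone mdx HRTΔIKKβ heart, so its SE holds no spread within that group. It cannot be set against the SE of the other choices.

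When each gene was centred on its mean over the 7 hearts and averaged by class, the hearts took the same order for both classes. For the plasma cell genes the class means were 1.32, 0.60, 0.30 and -0.09 in mdx HRTΔIKKβ replicates 2, 3, 4 and 1, with mdx IKKβf/f replicate 1 at 0.07 between replicates 4 and 1 of that group, and -0.86 and -1.34 in mdx IKKβf/f replicates 2 and 3. For the B cell receptor and surface genes they were 1.70, 0.17, -0.13 and -0.32 in the same mdx HRTΔIKKβ hearts, with mdx IKKβf/f replicate 1 at -0.26, and -0.54 and -0.63 in the remaining controls. The wider spread of the plasma cell class mean over the other hearts came mostly from Jchain, whose range was 6.39 against 1.60 for Mzb1 and 0.034 for Tnfrsf17. Mzb1 had replicate 2 above replicate 3 by 0.87 of its range of 1.60, as Ms4a1 did by 2.07 of 3.85. Jchain had replicate 2 above replicate 3 by 1.29, so Jchain and Mzb1 enter the gap between these hearts in the plasma cell class mean. Replicate 1 of the mdx HRTΔIKKβ group and replicate 1 of the mdx IKKβf/f group had class means near each other in every class, but not in every gene. The first heart minus the second was 0.65 for Ighm, -0.67 for Pou2af1 and -0.65 for Jchain.

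Beside these scores stand those of other tissues. In replicate 2 of the mdx HRTΔIKKβ group the mean of the lung and airway list was 2.30 above its average over hearts, that of adipocyte genes 1.35, that of mesothelial genes 1.05 and that of pan-leukocyte genes 0.78. Over all 18193 genes, 8683 averaged higher in mdx HRTΔIKKβ hearts. All 13 lung and airway genes on the array averaged higher in these hearts, with list levels of 6.07 to 9.40 against 5.98 to 6.61 in controls. So did all 8 adipocyte genes (8.32 to 9.85 against 7.71 to 8.55), all 8 mesothelial genes (7.13 to 8.37 against 6.72 to 6.83) and all 10 pan-leukocyte genes (8.20 to 9.28 against 7.87 to 8.67). Of the 10 thymus genes, 8 were highest in replicate 1, whose member levels were the lowest of the group for 7 of the 9 members. Replicate 3 had scores of -1.03 for lung and airway, -0.21 for thymus, -0.01 for adipocyte, -0.19 for mesothelial and -0.30 for pan-leukocyte genes. It was second to replicate 2 in 7 of the 9 members, Ighm and Jchain among them. A score is relative to the mean over hearts, so a low score does not show that a tissue was absent. In mdx IKKβf/f replicates 1 to 3 the mesothelial scores were -0.60, -0.52 and -0.49, and the adipocyte scores 0.04, -0.79 and -0.63. With replicate 3 as the lone mdx HRTΔIKKβ heart, the median difference was 0.40 for mesothelial and 0.45 for adipocyte genes. The score of 5 erythrocyte genes was 0.58 in replicate 2 and 0.77 in mdx IKKβf/f replicate 1, the highest hearts of their groups for Ighm and Jchain, and -0.03 or lower in the others, with the red cell anion exchanger gene Slc4a1 at 8.98 and 9.49 against 5.70 to 6.21. All 8 atrial genes averaged higher in mdx HRTΔIKKβ hearts, with list levels of 10.76 to 12.07 against 9.35 to 11.38, and their score was lowest, at -1.67, in mdx IKKβf/f replicate 2. The part of lung, fat, mesothelium, blood or atrium in the values of the members was not tested.

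**Figure D4:**
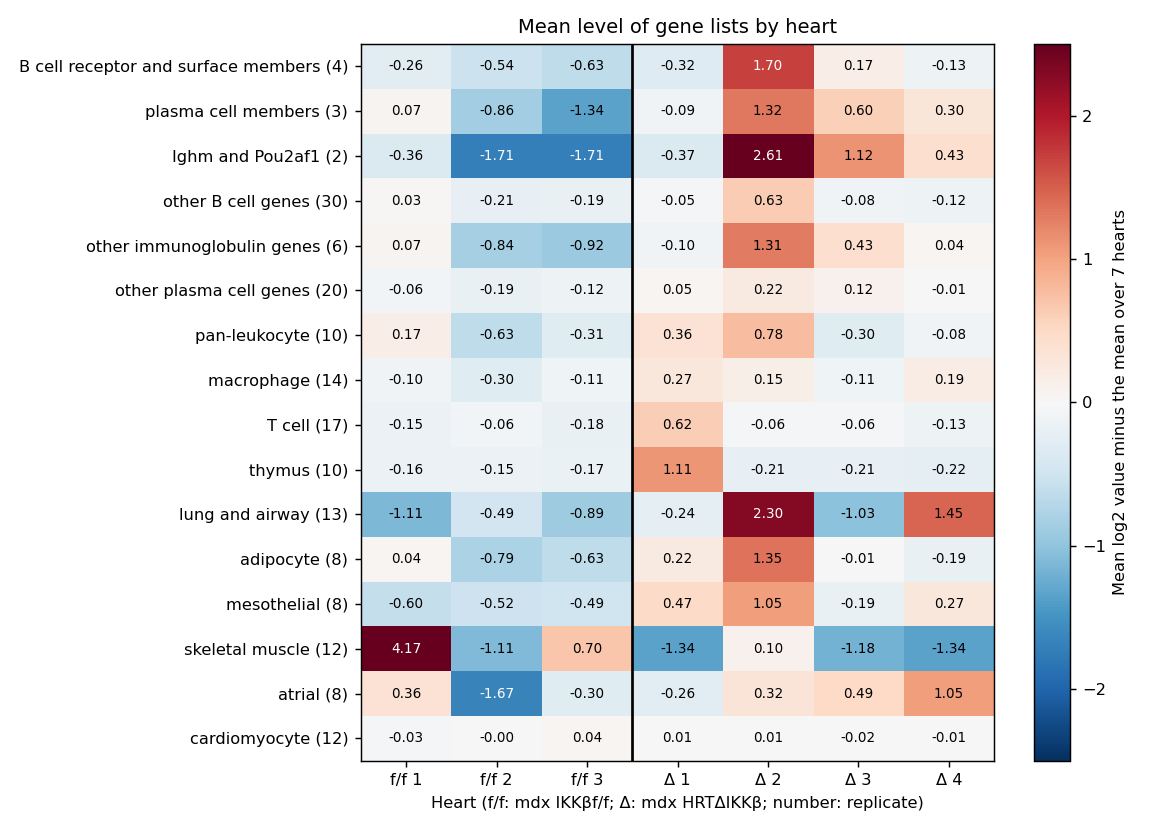
Mean log2 value of each gene list minus its mean over the 7 hearts (colour and printed number), with lists in rows (number of genes in brackets) and hearts in columns, mdx IKKβf/f left of the line and mdx HRTΔIKKβ right of it. The 3 member classes are highest in mdx HRTΔIKKβ replicate 2, which also has the highest lung and airway (2.30) and adipocyte (1.35) scores. They are second highest in replicate 3, where those scores are -1.03 and -0.01. Adipocyte scores in mdx IKKβf/f replicates 1 to 3 are 0.04, -0.79 and -0.63. The darkest colours stand for any value beyond the ends of the scale.

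Other B cell genes were looked at as a list of 32, of which 30 had a probe set of their own. Of these, 24 were on average higher in mdx HRTΔIKKβ hearts, where 8683 of all 18193 genes were. In 21 of them replicate 2 was the highest heart, where it was in 19.5% of all genes. The median difference was 0.18, or 0.041 without that heart. With limma 1 was higher at an unadjusted p under 0.05, the complement receptor gene Cr2 (0.30 ± 0.11), where 3.25% of all genes were, and 1 was lower, Bcl7a (-0.18 ± 0.06), where 2.95% were. After adjustment 0 of the 30 passed, as did 0% of all genes. The inhibitory receptor gene Cd22 read 8.06 in replicate 2 and 6.83 to 6.84 in every other heart. Fcmr, the IgM Fc receptor, read 7.73 there and 5.41 to 5.85 elsewhere. Bank1, Blk, Spib, Ltb and Plac8, all expressed in B cells, were likewise highest in replicate 2, with Plac8 at 9.88 there and at 8.52 in mdx IKKβf/f replicate 1. Pax5, the transcription factor that defines the B lineage, was flat at 5.78 to 6.01 in all hearts.

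Other immunoglobulin genes were 6 on the array, including Igll1 and Vpreb1 of precursor B cells. Of the 6, 5 averaged higher in mdx HRTΔIKKβ hearts, where 8683 of all 18193 genes did. The median difference was 0.95 (0.64 without replicate 2). At an unadjusted p under 0.05 limma called 2 of the 6 higher, where 3.25% of all genes were, and 0 after adjustment. Igk, a kappa light chain entry, read 6.93, 8.11, 7.78 and 6.95 in mdx HRTΔIKKβ hearts and 6.70, 6.13 and 6.25 in mdx IKKβf/f hearts, with no overlap (difference 1.08 ± 0.31, adjusted p = 0.796). Iglv1, a lambda light chain entry, read 7.35, 10.29, 8.91 and 7.58 against 7.37, 5.34 and 5.26 (difference 2.54 ± 0.80, adjusted p = 0.796). Both had the order seen in Ighm, with replicate 2 highest, replicate 3 next and control replicates 2 and 3 lowest. Since the set was chosen by Ighm, the p-values of both genes carry that choice and are given as a description. Igha, the heavy chain of IgA, differed in that control replicate 1 was the second highest heart. It read 9.08, 11.42, 9.16 and 9.80 in mdx HRTΔIKKβ hearts and 9.97, 7.95 and 7.47 in mdx IKKβf/f hearts. Ighg3 read 9.09 in replicate 2 and 8.01 in replicate 3 of the mdx HRTΔIKKβ group, against 6.96 to 7.30 in the other hearts. Igll1 and Vpreb1, which form the surrogate light chain of precursor B cells, differed by -0.04 and 0.08.

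Variable segments of immunoglobulin genes differ between B cell clones, and 20 probe sets of 15 such genes were looked at after their values had been seen. Of these, 12 were highest in mdx HRTΔIKKβ replicate 2 and 4 in mdx IKKβf/f replicate 2. Only 8 ranged over at least 1 log2 unit, and since several pass that range through replicate 2 alone, their being highest there is no separate observation. Igkv8-30 was graded like Ighm, at 8.60, 11.38, 10.10 and 9.17 in mdx HRTΔIKKβ hearts and 8.09, 6.51 and 6.45 in mdx IKKβf/f hearts. Igkv9-120 (1460423_x_at) was high in 2 hearts, at 10.12 in replicate 2 and 8.16 in replicate 3, against 4.90 to 5.77 in the others. Igkv15-103 was high in replicate 2 only, at 8.54 against 4.73 to 5.38, and Ighv14-2 likewise at 8.04 against 5.44 to 6.05. The other 12 probe sets ranged over less than 1 log2 unit. Probe sets of such segments can bind related segments, so a value does not count a single clone.

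**Figure D5:**
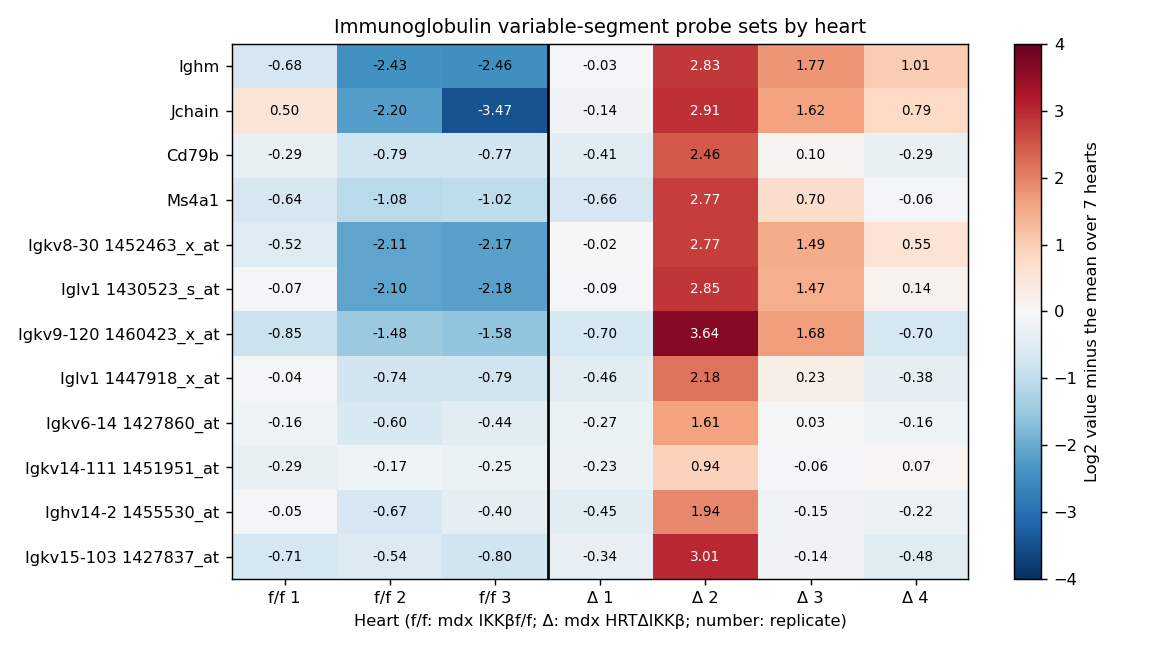
Log2 value minus the mean over the 7 hearts (colour and printed number) of 4 members and of the 8 immunoglobulin variable-segment probe sets that ranged over at least 1 log2 unit, a range that several reach through mdx HRTΔIKKβ replicate 2 alone, by heart. Igkv8-30 and the upper Iglv1 probe set follow Ighm and Jchain over all hearts, while Igkv15-103, Igkv6-14 and Ighv14-2 are high in mdx HRTΔIKKβ replicate 2 alone, as Cd79b largely is.

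Other plasma cell genes numbered 20 on the array, with a median difference of 0.23 (0.14 without replicate 2). Of these, 17 averaged higher in mdx HRTΔIKKβ hearts, where 8683 of all 18193 genes did. At an unadjusted p under 0.05 limma called 6 higher and 1 lower, where 3.25% and 2.95% of all genes were, with 0 after adjustment. Xbp1, the transcription factor that expands the secretory machinery of plasma cells and of many other cells, was higher by 0.48 ± 0.09 (adjusted p = 0.593) with no overlap. Creld2, an endoplasmic reticulum stress gene, was higher by 0.53 ± 0.08 (adjusted p = 0.560), and the surface proteoglycan gene Sdc1 by 0.54 ± 0.13 (adjusted p = 0.790). The order of hearts in Creld2 and Xbp1 was not that of Jchain, since both were highest in replicate 3 and replicate 2 was not set apart. In 9 of the 20 genes replicate 2 was the highest heart, Sdc1 among them (8.03), where it was in 19.5% of all genes. The lower gene was Prdm1, the repressor that commits B cells to the plasma cell state, at 6.34 to 6.64 in mdx HRTΔIKKβ hearts and 7.57, 6.53 and 7.29 in mdx IKKβf/f hearts (difference -0.57 ± 0.23, adjusted p = 0.796). Its 2 high values were in the control hearts with the highest skeletal muscle scores, 4.17 and 0.70, and the part of muscle in them was not tested. Irf4, which acts with Prdm1 in plasma cells, differed by 0.28 ± 0.20. Several of these genes are used by every secreting cell, and all 15 genes of a list of endoplasmic reticulum chaperones averaged higher in mdx HRTΔIKKβ hearts, 12 of them at an unadjusted p under 0.05 (3.25% of all genes) and 0 after adjustment.

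Of 11 ligand, cytokine and chemokine genes that draw, keep or activate B cells, 1 was higher in limma at an unadjusted p under 0.05 (3.25% of all genes) and 0 after adjustment, and the median difference was 0.01. That gene was Cxcl13, the chemokine that draws B cells through the receptor Cxcr5. It read 7.53, 9.42, 7.75 and 8.00 in mdx HRTΔIKKβ hearts and 7.01, 7.17 and 7.17 in mdx IKKβf/f hearts, with no overlap (difference 1.06 ± 0.41, adjusted p = 0.796). Cxcr5 itself read 5.85 in replicate 2 and 4.82 to 5.24 elsewhere. Tnfsf13b, which encodes BAFF, the ligand of Tnfrsf13c, differed by 0.02 ± 0.11, and Il6, a growth factor of plasma cells, by 0.76 ± 0.41 with its high value of 6.08 in replicate 1 of the mdx HRTΔIKKβ group.

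By Pearson correlation over the 7 hearts, among the 416 genes whose standard deviation between hearts was at least 0.5, the genes most like Ighm were Igkv8-30 (0.995), Iglv1 (0.975), Igk (0.965), Jchain (0.955), Pck1 (0.953), Slc39a8 (0.931), Mzb1 (0.911), Cytip, Gpm6a and Cracd (0.901). Pck1 encodes a gluconeogenic enzyme that fat also uses, and Cytip is a leukocyte gene. The genes most like Jchain were Iglv1 (0.968), Igkv8-30 (0.959), Ighm, Pck1, Igha (0.924), Cytip, Igk, Prkar2b, Slc39a8 and Tmem45b (0.879). Within the set, Cd79b was closest to Cd79a (0.988), Pou2af1 (0.977) and Ms4a1 (0.974), and less close to Ighm (0.795) and Jchain (0.770). Mzb1 was closer to Ms4a1 (0.980) and Cd79b (0.955) than to Jchain (0.865), although it was placed with the plasma cell genes. Sftpc, the alveolar gene, was at 0.983 with Cd79a. These values describe 7 points that share the high replicate 2 and the difference between the groups.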

How the data were processed

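RNA from 7 whole hearts was measured on Affymetrix GeneChip Mouse Genome 430 2.0 arrays. The authors deposited log2 values made by robust multi-array average (RMA), which corrects background, normalizes by quantiles and summarises each probe set. Partek and, independently, Affymetrix Expression Console were run per the submitters, with versions and the program behind the deposited table not given in the sources used here. RMA compresses the folds of dim probe sets, and no detection calls were used, so a low value cannot be called absent. The number of arrays limits the precision.

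The 2 groups were fitted in R 4.3.3 with lmFit and eBayes of limma 3.58.1 on the 45037 probe sets together, dim ones included. Tests were two-sided and p-values were adjusted by Benjamini and Hochberg's method. No probe set passed, and the lowest adjusted p was 0.336. Before adjustment 2735 probe sets had a p under 0.05, and the methods' t-test, an unpaired Student test, counted 2086 before adjustment and 0 after it. The procedure was tested on simulated data. Genes were named through the platform annotation, which can be old, where 34945 probe sets had 1 gene, 932 several and 9160 none. Symbols were compared with a RefSeq table (0 changed, 162 genes not in it). A gene was represented by its probe set with the highest mean. Promoter windows were RefSeq's (GRCm38.p6), and the windows of the other 4 members were not used here.

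The members and the gene lists were chosen with earlier results of these data known. Named by rule were the members, Ikbkb, up to 4 genes per list with the smallest p, a few defining markers and the 10 genes most correlated with Ighm and with Jchain among genes with a standard deviation of at least 0.5. Variable segments, Cd22, Fcmr, Bank1, Blk, Spib, Ltb, Plac8, Igll1, Vpreb1, Gcsam, Rgs13, Rag1, Dntt and Sftpc were named after their values were seen. Alternatives were median centring, a second quantile normalization, other choices of probe set, a floor or a filter at 5, means of linear values, trended and robust variance, the methods' t-test, the replicate number as a block and leaving out each heart. Leaving out the hearts with high airway or thymus markers was added after seeing the data. The labels give no sign that hearts of the same number belong together.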

Additional observations from a re-analysis of the deposited data

Results flagged for a closer look

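In the mdx HRTΔIKKβ group, replicate 2 stood apart from the other 3 hearts in 2 of the 20 member probe sets. Cd79a read 7.53 there, with a gap to the next heart of 0.925 of the group's whole range. Tnfrsf13c read 6.72, and since the other 3 hearts shared a value of 6.24 its gap was the whole range. Chance flags about 1 in 20 groups, and 20 were looked at. This is the heart with a lung and airway score of 2.30, and the part of that tissue in these values was not tested.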

How the results depend on the processing

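Every difference of Ighm, Jchain and Ms4a1 kept its direction under all alternatives. For Ighm no removal of hearts could have turned it, since the set was chosen by the separation of its groups. The Ighm difference was 0.76 with the mean of all 11 probe sets in place of the brightest, which by construction adds probe sets that varied little. Leaving out each heart in turn gave 2.78 to 3.84 for Ighm, 2.14 to 4.13 for Jchain and 0.91 to 2.05 for Ms4a1. The count of members at least 1.5-fold higher was 3 to 6, at 3 without mdx HRTΔIKKβ replicate 2. It was also 3 without the 2 hearts with high airway markers, a choice made after seeing the data. With mdx HRTΔIKKβ replicate 3 alone, which is assumed to vary like the other hearts, the Ighm difference was 3.63. The plasma cell median minus the B cell receptor median was -0.05 with all hearts and -0.17 to 0.19 when each was left out, so its sign rests on single hearts. The plasma cell median was the value of Mzb1 each time, so the size of the Jchain difference does not enter it. Of 56 other B cell, immunoglobulin and plasma cell genes, 11 had an unadjusted p under 0.05 in limma (over all genes 3.25% were higher and 2.95% lower), 8 to 12 without each heart and 7 with the methods' t-test, where the cause was not tested. Bcl7a and Prdm1 among the 11 were lower. Igk and Iglv1 among them followed Ighm, by which the set was chosen (Pearson r of 0.965 and 0.975). The count therefore describes these lists and does not test them. Over the whole array 0 probe sets passed adjustment, and 1 did without mdx HRTΔIKKβ replicate 1. Hearts with the same number did not deviate together (r of -0.08, -0.38 and -0.04), and the replicate block left 6 members at least 1.5-fold higher, with Ighm at 3.38, Jchain at 3.19 and Ms4a1 at 1.85, the class medians apart by -0.17, and 11 other genes and 0 probe sets called. Array values carry no depth, and dim members such as Tnfrsf17 and the second Ms4a1 probe set may have folds that RMA compressed.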

Other observations

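T cell genes had another heart at the top than the B cell genes. Of 17 on the array, 13 were highest in mdx HRTΔIKKβ replicate 1, the heart with thymus markers, where the list score was 0.62 against -0.18 to -0.06 in the other hearts. Cd3g, a chain of the T cell receptor complex, read 7.30 there and 4.91 to 5.51 elsewhere, and Cd8b1, a coreceptor chain of cytotoxic T cells and thymocytes, read 7.95 against 4.82 to 5.16. Dntt, which adds bases at the joins of antigen receptor genes in immature lymphocytes, read 8.66 against 6.47 to 6.75. Limma called 0 of the 17 T cell genes at an unadjusted p under 0.05 and 0 after adjustment.

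Germinal centre and class switching genes numbered 8 on the array, with a median difference of -0.00. Bcl6, a repressor of germinal centre B cells that other cells also express, was highest in mdx HRTΔIKKβ replicate 3 at 9.51 (difference 0.49 ± 0.21, limma, adjusted p = 0.796). Ung, which removes uracil from DNA in class switching and in repair in all cells, read 9.33 to 9.56 in mdx HRTΔIKKβ hearts and 9.76 to 9.86 in mdx IKKβf/f hearts, with no overlap (difference -0.38 ± 0.07, adjusted p = 0.626). Gcsam and Rgs13, genes of germinal centre B cells, differed by 0.00 and -0.01. Among receptors and carriers of IgM, Pigr is the epithelial transporter of IgM and IgA. It was at 6.51 and 6.47 in the hearts with high airway markers and at 5.37 to 5.74 in the others. Cd5l, a macrophage protein that circulates bound to IgM, read 7.88 in mdx HRTΔIKKβ replicate 2 and 6.27 to 6.66 elsewhere.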
